A study of Mus musculus with 5 samples.

Results

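The genes examined were 10 core genes of the circadian clock, namely Arntl, Clock, Per1, Per2, Per3, Cry1, Cry2, Nr1d1, Nr1d2 and Dbp, in mouse aorta. They were taken as every probe set of the array annotated with 1 of these symbols, which gave 16 probe sets for the 10 genes among 22626 probe sets and 12393 named genes in all. Arrays of 3 pools of db/db mice (replicates 1, 2 and 3), homozygous for the Lepr db mutation of the leptin receptor, were compared with those of 2 pools of heterozygous db/+ mice (replicates 2 and 3). The design text describes 1 more pool of db/+ mice, which is not analysed here. All were males of the strain BKS.Cg-m +/+ Lepr db/J, aged 16 to 20 weeks and fed regular chow, with no treatment named in the labels, and each pool held RNA of 6 aortas from which adventitia and periaortic fat had been removed, per the labels and the design text. The strain name also lists m, the misty allele, and the labels do not say which pools carried it. Neither the labels nor the design text give the hour of tissue collection, the lighting or the fed state of the mice, so that every level below is a level at an unstated time of day.

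The clock is a transcriptional loop that runs in nearly every cell, including smooth muscle and endothelium of the vessel wall. The proteins of Arntl (BMAL1) and Clock bind the E-box CACGTG and drive the Per, Cry, Nr1d1, Nr1d2 and Dbp genes, PER and CRY proteins then block them, and the receptors REV-ERBα and REV-ERBβ, encoded by Nr1d1 and Nr1d2, repress Arntl in a linked loop. In mouse tissues Dbp, Nr1d1, Nr1d2 and the Per genes peak at phases about opposite to that of Arntl and of Npas2, a relative of Clock, so that a pool taken at another phase is read by these sets moving against each other.

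The 250 bases before the annotated start of 9 of the 10 genes were read from RefSeq (GRCm38.p6) and searched on both strands for the E-box CACGTG, for the D-box TTATGTAA or TTACGTAA that DBP binds, and for AGGTCA, the core of the element bound by REV-ERB receptors. The 4 windows below are shown because they hold these letters, in capitals, next to genes whose levels are described here. They are Per1 on the plus strand of chr11:69098699-69098948, with an E-box 166 bases before the start and the complement of AGGTCA at 137, Cry1 on the minus strand of chr10:85185055-85185304, with an E-box at 60, Per3 on the minus strand of chr4:151044666-151044915, with D-boxes at 205 and 158, and Nr1d2 on the minus strand of chr14:18239107-18239356, with AGGTCA at 77.
Per1: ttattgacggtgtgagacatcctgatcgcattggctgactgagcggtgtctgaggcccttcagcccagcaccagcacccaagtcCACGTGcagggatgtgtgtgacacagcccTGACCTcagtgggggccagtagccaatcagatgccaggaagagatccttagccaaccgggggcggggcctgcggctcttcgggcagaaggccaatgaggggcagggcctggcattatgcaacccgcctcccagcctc
Cry1: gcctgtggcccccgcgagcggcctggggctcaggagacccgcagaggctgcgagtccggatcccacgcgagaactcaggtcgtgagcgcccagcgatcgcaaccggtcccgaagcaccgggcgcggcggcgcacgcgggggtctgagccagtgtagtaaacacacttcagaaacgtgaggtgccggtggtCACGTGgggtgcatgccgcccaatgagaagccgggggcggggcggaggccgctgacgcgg
Per3: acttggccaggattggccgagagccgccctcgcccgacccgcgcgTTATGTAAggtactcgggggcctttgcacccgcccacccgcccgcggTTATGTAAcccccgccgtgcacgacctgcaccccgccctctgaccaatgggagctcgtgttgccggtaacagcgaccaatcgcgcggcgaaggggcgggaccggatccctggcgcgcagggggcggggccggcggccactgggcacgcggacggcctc
Nr1d2: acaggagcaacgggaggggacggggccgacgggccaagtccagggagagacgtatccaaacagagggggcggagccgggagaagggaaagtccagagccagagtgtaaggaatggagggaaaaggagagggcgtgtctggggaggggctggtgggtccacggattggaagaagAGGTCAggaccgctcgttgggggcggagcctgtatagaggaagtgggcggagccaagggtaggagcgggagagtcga
None of these motifs overlapped. Over 32851 such windows of annotated genes, 6.02% held the E-box, 0.932% a D-box and 14.02% AGGTCA. The windows of Arntl, Cry2, Dbp, Nr1d1, the other start of Per1 and 2 of 3 starts of Clock held none of the letters, and the remaining start of Clock held the complement of AGGTCA 119 bases upstream. Only exact letters in these 250 bases were searched, so sites elsewhere in a gene or with other letters were not seen. Per2 had no window to read.

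Signals were MAS5 intensities on a linear scale, in which all arrays had been scaled to the same trimmed mean. A genotype difference is given as a log2 change of (signal + 16), db/db minus db/+, with its standard error (SE) or 95% interval from limma, and an adjusted p under 0.05 was counted as past the threshold. A mean signal above 40.6, the 40th percentile of all probe sets, was required for testing, and 14 of the 16 met it. The probe set of Cry1 and 1 of 3 probe sets of Per3 did not. Pairs of arrays correlated across tested probe sets with r between 0.951 and 0.976. All 6 smooth muscle markers were measured on every array, but markers of fat, heart muscle and liver were also measured. The lowest smooth muscle signal was 804 at the brightest probe set of each marker. Dimmer probe sets of Acta2 and Myh11 went down to 66.3 and 82.2. In such bulk samples fewer cells of a type and less RNA per cell cannot be told apart.

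No clock gene passed the threshold between genotypes. Of the 14 tested probe sets 0 were called in either direction, beside 13 of 13574 probe sets (0.0958%), all lower in db/db, over the array. At an unadjusted p under 0.05 there were 3 of 14, beside 8.16% over the array, namely lower Cry2, lower Per2 and higher Nr1d1. These 3 were also the probe sets whose arrays did not overlap between genotypes, and 25.0% of all tested probe sets did not overlap, so that the non-overlap of 3 in 14 lies near its background. The same 3 in 14 exceeded the 8.16% of the array at that unadjusted p, a difference that was not tested. The median log2 change over the 14 was 0.04, beside 0.02 over all tested probe sets.

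**Figure D1:**
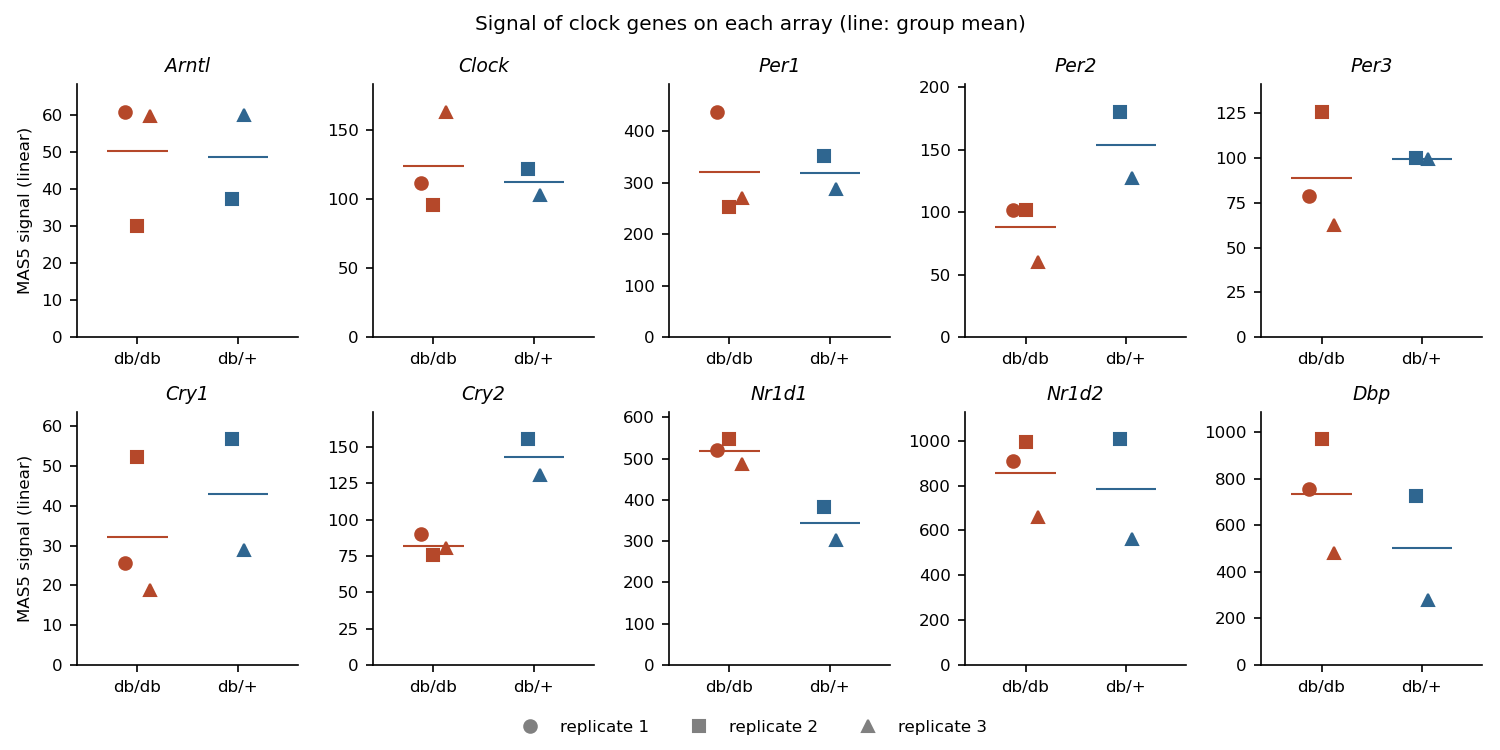
MAS5 signal (linear, from 0) of the probe set with the highest mean of each clock gene on the 3 db/db and 2 db/+ arrays; symbols give the replicate and lines the group mean. The groups separate for Per2, Cry2 and Nr1d1 and overlap for the other 7 genes, and Dbp ranges from 279 to 969.

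The activators had closely similar group means. Arntl, whose product is the indispensable partner of CLOCK, had 60.8, 30.0 and 59.6 in db/db replicates 1, 2 and 3 and 37.3 and 60 in db/+ replicates 2 and 3 (probe set 1425099_a_at). Its low arrays were replicate 2 of either genotype, and the log2 change between genotypes was 0.02 (95% interval −0.59 to 0.62, limma adjusted p = 0.99). Clock had 111, 95.8 and 163 in db/db and 122 and 102 in db/+ at probe set 1418659_at, a log2 change of 0.10 (interval −0.41 to 0.60), and its other probe set had −0.06 (−0.51 to 0.38). Here db/db replicate 3 was the highest array at both probe sets, and the genotypes overlapped.

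Among the repressors, Cry2 had the smallest p of the 10 genes. CRY2 is a flavoprotein that inhibits the CLOCK and BMAL1 dimer. Its signal was 89.8, 75.8 and 80.3 in db/db and 155 and 131 in db/+ (1426383_at), with every db/db array below both db/+ arrays. The log2 change was −0.70 (SE 0.16, unadjusted p = 0.0023, limma adjusted p = 0.24). Over 16 alternative settings it ranged from −0.81 to −0.50, and the adjusted p was never under 0.14. Among these settings the filters, the trended robust fit and averaging by gene could not alter the log2 change. The spread of Cry2 within genotypes was small, with a residual SD above only 22.6% of tested probe sets.

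Per2, a light- and hormone-responsive repressor, had 102, 102 and 60.5 in db/db and 180 and 128 in db/+ at probe set 1417602_at. The genotypes did not overlap, although db/db replicate 3 lay well below the other 2 db/db arrays, and the log2 change was −0.72 (SE 0.24, unadjusted p = 0.016, limma adjusted p = 0.46). The dimmer probe set of Per2 did not show this separation, with 49.6, 48.1 and 37.3 in db/db and 70.9 and 40.7 in db/+ (−0.21, interval −0.70 to 0.28). Without db/+ replicate 2 that value was 0.10.

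Per1, which also responds acutely to glucocorticoids and to cAMP, had 438, 252 and 270 in db/db and 351 and 287 in db/+. Its highest and its lowest array were both db/db, and the log2 change was −0.03 (interval −0.59 to 0.53). Per3, a PERIOD protein that is dispensable for rhythm in mice, had 78.8, 126 and 62.6 in db/db and 99.9 and 99.4 in db/+ at 1421087_at, so that both db/+ arrays lay inside the db/db range. Its log2 change was −0.18 (−0.74 to 0.37), and 0.06 (−0.34 to 0.47) at 1460662_at. The third probe set of Per3 was dim on all arrays, between 10.6 and 28.9, and was not tested. Cry1, the partner of Cry2 that peaks later in the cycle, had 25.7, 52.2 and 18.8 in db/db and 56.7 and 29.0 in db/+. It was not tested because of its low mean. The high arrays were replicate 2 of either genotype, the reverse of Arntl.

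In the linked loop, Nr1d1 had 521, 547 and 486 in db/db and 384 and 304 in db/+ (1426464_at). All db/db arrays lay above both db/+ arrays, with a log2 change of 0.58 (SE 0.17, unadjusted p = 0.0082, limma adjusted p = 0.37). The change stayed positive in all 16 alternative settings, from 0.42 to 0.74, although the filters, the trended robust fit and averaging by gene could not alter it. Its close relative Nr1d2 had 908, 996 and 660 in db/db and 1006 and 561 in db/+ (1416958_at). Those arrays overlapped, and the log2 change was 0.16 (interval −0.46 to 0.78). A dimmer probe set of Nr1d2 had 77.0, 40.1 and 80.4 in db/db and 69.9 and 46.1 in db/+, with db/db replicate 2 the lowest array, whereas it was the highest within db/db at the brighter probe set, so the probe sets of this gene disagree within db/db.

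Dbp encodes a PAR-domain leucine zipper activator and is among the most strongly cycling transcripts of mouse tissues. Its signal was 756, 969 and 479 in db/db and 723 and 279 in db/+ (1418174_at), and 574, 971 and 453 in db/db and 909 and 262 in db/+ at its other probe set. At both, db/db replicate 2 was the highest and db/+ replicate 3 the lowest array. The log2 changes were 0.63 (SE 0.40, limma adjusted p = 0.77) and 0.36 (SE 0.48, adjusted p = 0.90). They rested on db/+ replicate 3: without that array they were −0.03 and −0.51, and without db/+ replicate 2 they were 1.29 and 1.22 (limma adjusted p = 0.71 and 0.81).

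**Figure D2:**
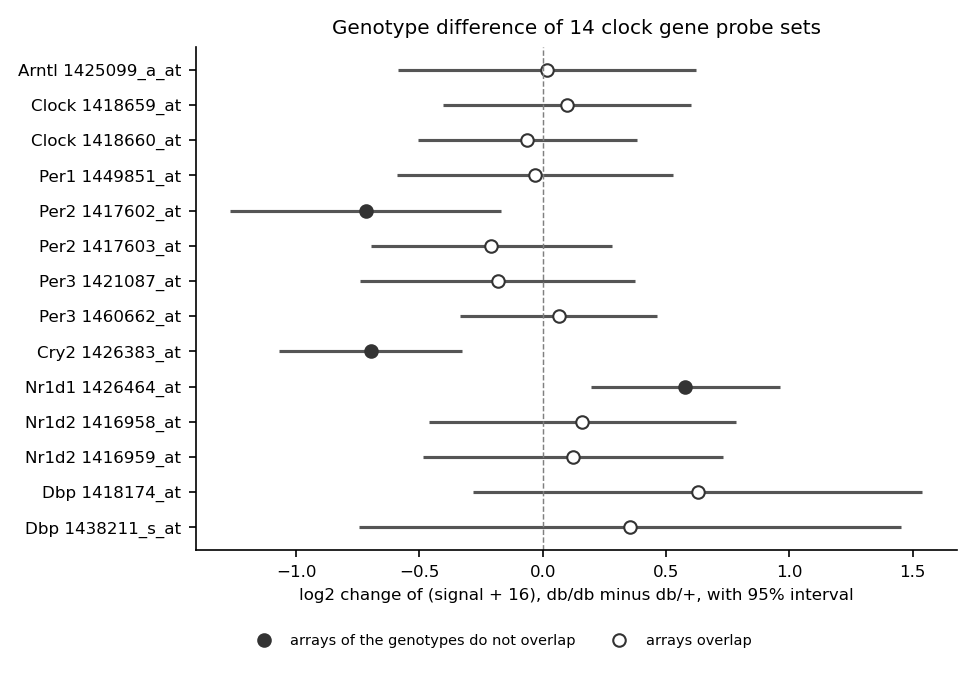
Log2 change of (signal + 16), db/db minus db/+, for the 14 tested probe sets of clock genes (points) with 95% intervals from limma (lines), filled where the arrays of the genotypes do not overlap. The filled points are Per2 at −0.72, Cry2 at −0.70 and Nr1d1 at 0.58, and the widest intervals are those of Dbp.

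Much of the variation of these genes lay between pools of the same genotype. The residual SD of the fit, which measures the spread of log2 values within genotypes, was above the array's median for 11 of the 14 probe sets and in its top decile for 5. The median was 0.35 for the clock probe sets and 0.19 over all tested. Dbp led with residual SDs of 0.68 and 0.84, above 99.0% and 99.6% of tested probe sets, followed by both probe sets of Nr1d2 (0.42 and 0.40) and by Arntl (0.40). Arntl, from 30.0 to 60.8, and the dimmer Nr1d2 probe set, from 40.1 to 80.4, had signals near the filter level of 40.6. The ranks were taken over all signal levels, and the part of low signal in the spread of these 2 probe sets was not tested. The arrays of Dbp differed 2.59-fold within db/+ and 2.02-fold within db/db at 1418174_at.

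The direction of that variation was opposite in the activators Arntl and Clock, with exceptions, and in the genes that they drive. Within db/db, replicate 2 exceeded replicate 3 by 0.99 and 1.07 on the log2 scale at the probe sets of Dbp, 0.58 at the brighter probe set of Nr1d2, 0.63 at Per2 and 0.85 at Per3 (1421087_at). The same difference was −0.72 for Arntl, and −0.68 and −0.49 for Clock. Within db/+, replicate 2 exceeded replicate 3 by 1.32 and 1.73 at Dbp, 0.83 at Nr1d2 and 0.45 at Per2, while Arntl had −0.51. In both genotypes, 7 further probe sets of 13574 had differences at least as large as Dbp at 1418174_at, and 3 at its other probe set. Dbp is the clock gene with the largest spread within genotypes, and the replicate numbers are not a known pairing. These counts are thus a description.

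Of the 10 tested probe sets of Dbp, Nr1d1, Nr1d2 and the Per genes, replicate 2 was above replicate 3 at 7 within db/db and at all 10 within db/+, and at 7 in both. Over the array 48.3% were above within db/db, 48.6% within db/+ and 24.5% in both. Of the 4 tested probe sets of Arntl, Clock and Npas2, replicate 2 was below replicate 3 in both genotypes at 3, beside 27.5% over the array, and the exception was Clock 1418659_at within db/+ (0.22). The tested probe set of Npas2 had 98.5 on db/db replicate 3 and lay under the filter level of 40.6 on every other array. It was thus tested only through an array that enters this count, and its part in the count is no support. Per1 (−0.09 within db/db) and the dim probe set of Nr1d2 (−0.78 within db/db) went against the other probe sets of their set, and Per3 1460662_at had 0 there. No label says that a replicate number marks a shared day, litter or hour.

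**Figure D3:**
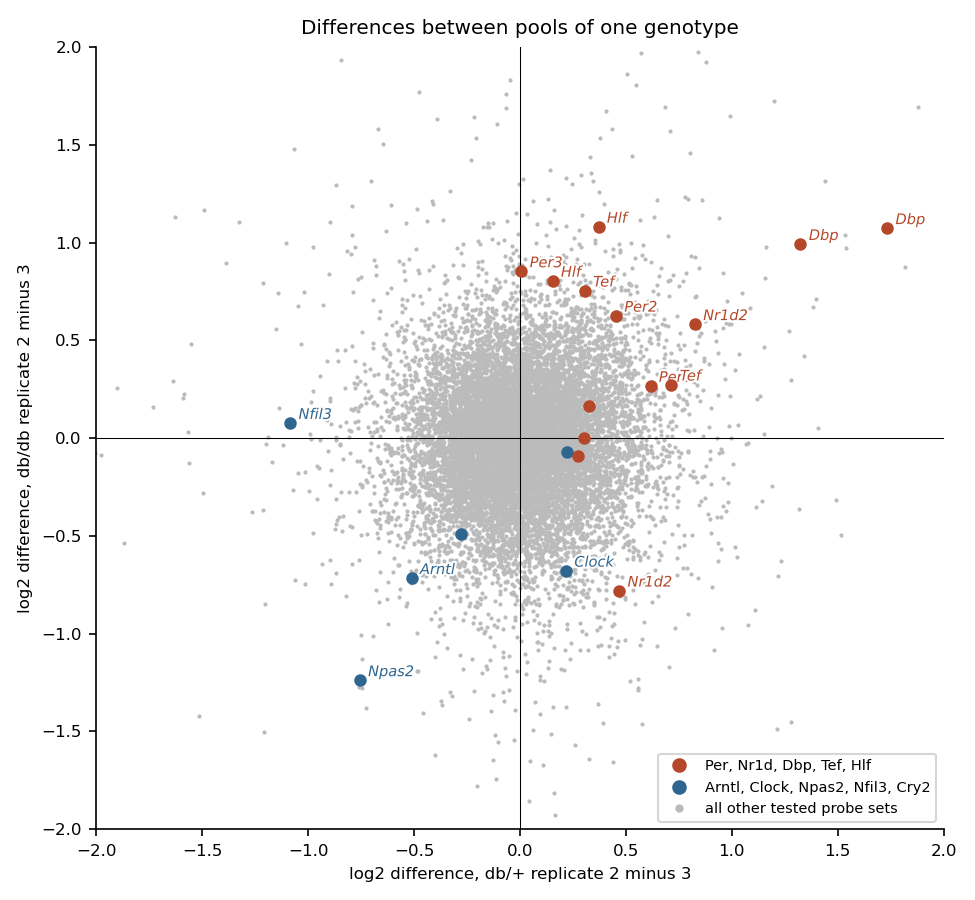
Log2 difference, replicate 2 minus replicate 3, within db/db (vertical) and within db/+ (horizontal) for the tested probe sets (grey), with clock genes coloured by set and labelled where they differ by over 0.6; 19 probe sets beyond 2 on either axis are not drawn. Dbp lies at the upper right, with 0.99 and 1.07 within db/db and 1.32 and 1.73 within db/+, and Npas2 and Arntl at the lower left.

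As a description with no test, an index was formed for each array from the centred log2 values of the brightest probe set of each gene, the mean of Dbp, Nr1d1, Nr1d2, Per1, Per2 and Per3 minus the mean of Arntl, Clock and Npas2. It was 0.07, 0.51 and −0.89 in db/db replicates 1, 2 and 3, and 0.59 and −0.29 in db/+ replicates 2 and 3. High and low arrays were thus found in both genotypes. The range was 1.40 within db/db and 0.89 within db/+, whereas the group means of −0.10 ± 0.72 (SD, n = 3) and 0.15 ± 0.63 (SD, n = 2) differed by −0.25. That difference turned to 0.33 without db/db replicate 3 and to 0.20 without db/+ replicate 2.

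The sets did not oppose each other on every array. On db/db replicate 1 the Dbp, Nr1d and Per set had 0.16 and the Arntl, Clock and Npas2 set 0.09, and on db/+ replicate 3 they had −0.31 and −0.02, so that the low index of that db/+ array lay in the Dbp, Nr1d and Per set. On db/db replicate 1 Per1 was highest and Dbp was second highest within db/db at both probe sets, while Arntl was as high as on db/db replicate 3. The db/db replicate 3 array had the largest opposition, with −0.30 and 0.59. Npas2 had the largest part in the latter, with a centred value of 1.10 beside 0.43 for Clock and 0.24 for Arntl. On every other array the signal of Npas2 lay under the filter level of 40.6. A transcript level of a pool taken at an unstated time cannot tell a shift of phase from a change of amplitude. The labels do not say whether the aortas of a pool were taken at the same hour.

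**Figure D4:**
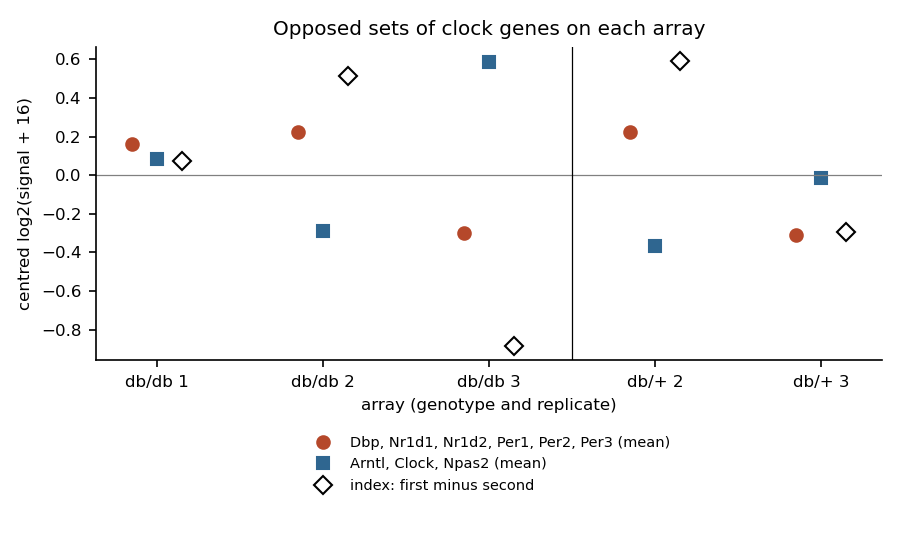
Mean centred log2(signal + 16) of 6 genes (Dbp, Nr1d1, Nr1d2, Per1, Per2, Per3; circles) and of 3 genes (Arntl, Clock, Npas2; squares), and their difference (diamonds), on each array. The difference is high on replicate 2 of db/db (0.51) and of db/+ (0.59) and low on replicate 3 of each (−0.89 and −0.29).

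The wider pathway was read from a list of 22 further clock and clock-output genes, of which 19 had 37 probe sets and 31 were tested. None passed the threshold in either direction. At an unadjusted p under 0.05, 6 were lower, beside 4.19% of all tested, and 1 was higher, beside 3.97%. Arrays did not overlap at 9 of 31, beside 25.0% over the array. The log2 changes ranged from −1.02 to 0.84, with a median of −0.11.

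Npas2, which can replace CLOCK as partner of BMAL1 and is a direct REV-ERB target, had 39.9, 32.5 and 98.5 in db/db and 13 and 33 in db/+ (1421037_at). It followed Arntl in being lower on replicate 2 than on replicate 3 in both genotypes, and its log2 change of 0.84 did not pass (interval −0.004 to 1.69, limma adjusted p = 0.61). The other probe set of Npas2 had 51.5, 5.7 and 55.2 in db/db and 2.8 and 40.3 in db/+, and was not tested. Nfil3, a repressor of D-box genes, had 26.8, 55.6 and 51.9 in db/db and 45.3 and 114 in db/+, so that its highest array, db/+ replicate 3, was the lowest of Dbp. Tef and Hlf encode PAR-domain relatives of DBP. Tef had 942, 1233 and 725 in db/db and 1053 and 849 in db/+ (1424175_at), and Hlf had 156, 213 and 92.4 in db/db and 165 and 124 in db/+ (1434736_at). At these probe sets both were highest on db/db replicate 2 and lowest on db/db replicate 3, with log2 changes between genotypes of −0.0009 and 0.03. The other tested probe set of Tef, 1450184_s_at, had 125, 110.5 and 88.7 in db/db and 141 and 79.9 in db/+, with db/+ replicate 2 the highest and db/+ replicate 3 the lowest array.

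**Figure D5:**
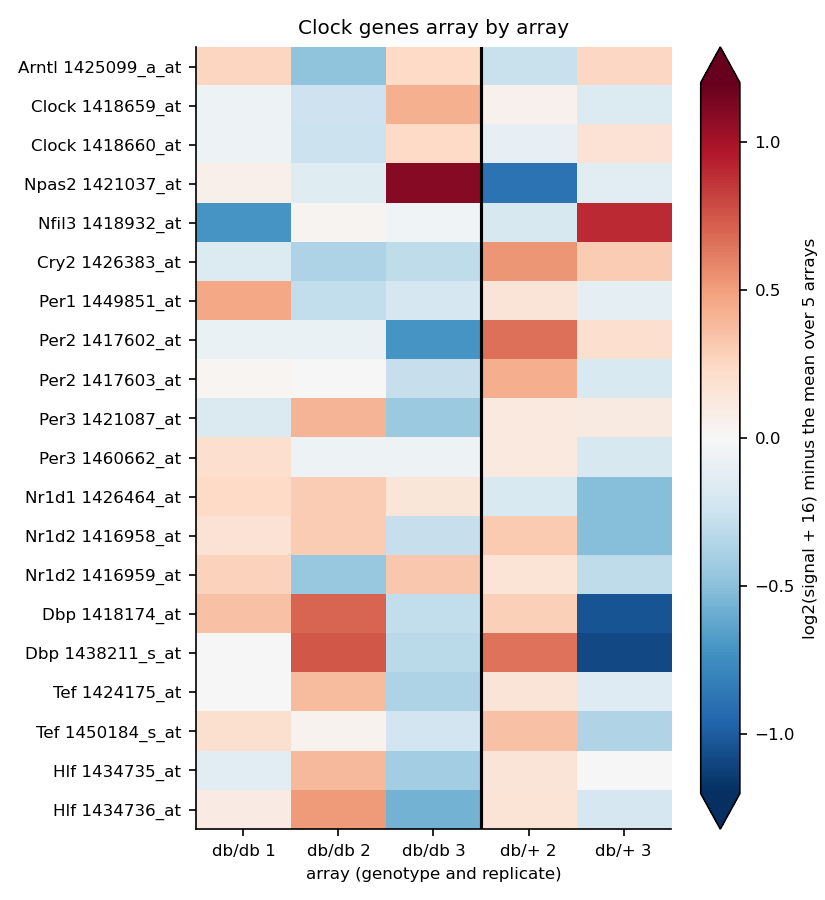
Log2(signal + 16) minus its mean over the 5 arrays for the tested probe sets of clock genes, with db/db arrays left of the line and db/+ arrays right of it; the colour scale ends at −1.2 and 1.2. Dbp, Hlf, Tef 1424175_at and Nr1d2 1416958_at are above their mean on replicate 2 of both genotypes, where Arntl is below its mean. Cry2, Nr1d1 and Per2 1417602_at separate the genotypes.

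The E-box repressors Bhlhe40 and Bhlhe41 (DEC1 and DEC2) differed from each other. Bhlhe40 had 148, 181 and 288 in db/db and 151 and 90 in db/+, a log2 change of 0.69 (unadjusted p = 0.045, limma adjusted p = 0.61), and Bhlhe41 had 55.2, 73.3 and 30.8 in db/db and 33.8 and 36.3 in db/+ (0.39, adjusted p = 0.78). In both genes the arrays overlapped between genotypes.

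Several clock-controlled outputs had lower values in db/db without passing. Wee1, a cell cycle kinase gene with E-boxes, had 87.3, 124 and 123 in db/db and 243 and 161 in db/+ (1416773_at), with log2 changes of −0.76 and −0.84 at its probe sets (limma adjusted p = 0.37 and 0.24). Every db/db array lay below both db/+ arrays at each. Usp2, a deubiquitinase that cycles in many mouse tissues, had 44.6, 64.8 and 44.5 in db/db and 95.6 and 68.7 in db/+ at 1417168_a_at (−0.54, adjusted p = 0.53), and −0.22 at its other probe set, where arrays overlapped. Tsc22d3, which encodes the glucocorticoid-induced protein GILZ, had 157, 181 and 199 in db/db and 394 and 364 in db/+ at 1425281_a_at. Its log2 change of −1.02 (SE 0.16, limma adjusted p = 0.079) was the largest in size of the list, and it passed under a stricter signal filter (60th percentile), a pseudocount of 64, a trended robust fit or array weights (adjusted p from 0.038 to 0.046). The other probe sets of Tsc22d3 had −0.32 and −0.26 and overlapped between genotypes.

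The glucocorticoid responsive genes, a list that also holds Tsc22d3, had sums that separated the genotypes, unlike Dbp. Each gene of this list and of the immediate early list was read at its probe set with the highest mean, for Tsc22d3 1420772_a_at. Of 12 measured, 0 passed and 8 were lower at an unadjusted p under 0.05, beside 4.19% of all tested probe sets. The median log2 change was −0.60. Their summed signal lay between 6742 and 7223 in db/db and between 10101 and 10738 in db/+. Immediate early genes, which respond to acute stimuli, had 0 of 10 past the threshold, a median log2 change of −0.0036 and a summed signal of 7418.5, 6290 and 11098 in db/db and 9120 and 6682 in db/+. The highest sum was on db/db replicate 3, where Per1 had 270. The part of either list in the values of Per1, Per2 or Tsc22d3 was not tested.

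Markers of attached tissue, each read at its probe set with the highest mean, also differed between pools. The summed signal of 6 heart muscle markers was 455, 2316 and 628 in db/db and 1340.5 and 987 in db/+, and that of 5 measured fat cell markers was 5026, 8638 and 6595 in db/db and 7984 and 7260 in db/+. Both were higher on replicate 2 than on replicate 3 in each genotype, as Dbp was, but lowest on db/db replicate 1, where Dbp had 756. The sums for brown fat were 4486.5, 8653 and 7366 in db/db and 5596 and 5961 in db/+. Macrophage sums ranged from 1603 to 1861 in db/db and 2717 to 3374 in db/+, those of 6 liver cell markers from 870 to 1206 in db/db and 1537 to 1577 in db/+, and those of 6 endothelial markers from 847 to 1144.5 in db/db and 1364 to 1497 in db/+. These 3 sums were lower in db/db and did not overlap between genotypes. Of single tested probe sets, 25.0% did not overlap over the array. Smooth muscle sums, from 22124 to 26895.5 in db/db and 20217 to 23160 in db/+, overlapped. Unadjusted p-values under 0.05 were found for 5 lower macrophage markers of 6, 4 lower endothelial, 4 lower and 2 higher liver, 1 lower and 1 higher fat cell and 1 higher brown fat marker, beside 4.19% lower and 3.97% higher over the array. No marker was at 0 on any array, 0 of 6 passed in each of the heart, smooth muscle, endothelial and macrophage lists and 0 of 5 in the brown fat list. In the fat cell list 1 of 5 passed, Lep, and in the liver list 1 of 6, Alb. Both were lower in db/db (log2 changes −2.96 and −2.24). The part of these marker lists in the clock gene values was not tested.

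Likeness to Dbp over the 5 arrays was measured as the root mean square difference between centred log2 profiles. Dbp's own other probe set was at 0.23, nearer than all but 0.008% of the tested named probe sets. Nr1d2 (1416958_at) followed at 0.31, nearer than all but 0.16%, then Nr1d1 at 0.41 (1.72%), Hlf 1434736_at at 0.42 (1.98%) and Tef at 0.43 for 1450184_s_at (2.34%) and 0.46 for 1424175_at (3.95%). The brighter probe set of Hlf, 1434735_at, was less near, at 0.54 (16.3%). Not all genes of the Dbp, Nr1d and Per set were near. Per3 lay at 14.1% and 31.1% of the ranked probe sets, Per1 at 40.5%, Per2 at 12.03% and, for its brighter probe set 1417602_at, 80.6%, and the dimmer probe set of Nr1d2 at 64.7%. At the far end Arntl lay at 0.85, farther than 95.7%, Npas2 at 0.99 (98.8%) and Nfil3 at 1.06 (99.2%). The 5 nearest genes outside the clock lists were Tpm1 1456623_at, Zfp518b, Rasd2, Angptl7 and Uroc1, at 0.21 to 0.27 among 12458 probe sets compared. The probe set of Tpm1 was dim, from 8.5 to 84.4. Likeness over 5 arrays is a description of these pools.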

How the data were processed

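Values deposited by the authors were intensities on a linear scale, 1 per probe set and array. The submitters' processing notes name MAS5 without a version, and genome build and further steps are not given in the sources used here. The 2% trimmed mean was 150.05 on every array, so no further normalization was applied. Of 22690 probe sets 64 were controls and were left out; 20380 of the rest had 1 gene symbol in the platform annotation, 691 several and 1555 none. Values were taken as log2(signal + 16), which understates changes of low signals. The 13574 probe sets with a mean above the 40th percentile were fitted in R 4.3.3 by limma 3.58.1 (lmFit and eBayes, two-sided, no covariates, 3 residual and 5.39 prior degrees of freedom) with Benjamini-Hochberg adjustment over all of them. The number of arrays limits the precision, and an array is a pool, so spread between single mice is not seen. The test was tried on simulated data. Members, lists, motifs and index were chosen with earlier results of these data known. All 10 genes are named, with further clock genes from a fixed list and the 5 genes nearest to Dbp. Alternatives were other pseudocounts (1, 64), filters, normalizations and variance models, array weights, a block for the replicate number, leaving out each array, a threshold of 0.1, and probe sets averaged by gene.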

Additional observations from a re-analysis of the deposited data

How the results depend on the processing

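No clock gene probe set passed under any of the 16 alternatives, with adjusted p of at least 0.14. Of all probe sets, 13 passed in the reported fit, against 3 with a pseudocount of 1, 37 with 64, 1 with no filter, 35 with a filter at the 60th percentile, 21 with median centring, 41 with a trended robust fit, 48 with array weights, 49 at a threshold of 0.1, and 1 to 13 with each array left out (1 without db/+ replicate 2 or 3). A filter on the mean of log2 values, chosen after seeing the data, gave 11. Where 1 db/+ array remained, it was assumed to vary like the db/db arrays. Among the other clock genes 1 probe set, of Tsc22d3, passed with a pseudocount of 64, the 60th percentile filter, the trended robust fit, array weights or the threshold of 0.1, and 0 in the other settings, including each array left out. The index difference was 0.59 with Dbp and Nr1d1 against Arntl only, and −0.69 to 0.33 with each array left out. It was −0.40 with a pseudocount of 1, −0.08 with 64, −0.02 with the 60th percentile filter and 0.015 with the filter on the mean of log2 values. The 60th percentile filter left Arntl and Npas2 out of the index, and the filter on the mean of log2 values left out Npas2.

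Because no clock gene change passed in any setting, a sign could turn only for a change that had not passed. The cause of the turned signs was not tested. With each array left out, the log2 change ranged from −0.24 (without db/+ replicate 2) to 0.27 for Arntl, −0.10 (db/db 3) to 0.24 and −0.20 to 0.076 (db/+ 3) for Clock, −0.27 to 0.11 (db/db 2, db/+ 2) for Per1, −0.52 to 0.10 (db/+ 2) for the dimmer Per2 probe set, −0.42 to 0.0042 (db/db 3) and −0.087 (db/+ 3) to 0.22 for Per3, −0.034 to 1.29 and −0.51 to 1.22 for Dbp (without db/+ 3 and db/+ 2), and −0.25 to 0.57 and −0.11 to 0.37 for Nr1d2 (lowest without db/+ 3). Other turned values were, for Arntl, −0.037 with quantile normalization, −0.020 with median centring, −0.11 without db/db 1 and −0.10 without db/db 3. They were −0.011 for Clock without db/+ 3, 0.051 for its other probe set without db/db 2, 0.064 for Per1 without db/db 3, −0.023 for Per3 without db/db 1 and −0.016 for the dimmer Nr1d2 probe set without db/db 3.

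With the replicate number as a block, 22 probe sets passed, 10 of them among the 13 of the reported fit and 0 of them clock genes. Clock probe sets at an unadjusted p under 0.05 numbered 4 in place of 3, the added one being Dbp 1418174_at (log2 change 0.58, limma adjusted p = 0.44). Arntl had −0.11, the dimmer tested Per3 probe set −0.023 and the index difference −0.33. Replicate 1 exists only in db/db, so the block takes up that array. These 3 values are therefore the same as those without db/db replicate 1. The block changed no call of a clock gene at the adjusted threshold. Deviations of same-numbered arrays correlated across probe sets with r = 0.11 for replicates 2 and 0.0005 for replicates 3. A pair with unlike numbers, db/db replicate 1 with db/+ replicate 2, had a value of the same size, r = −0.11. The 2 db/+ arrays deviate by equal and opposite amounts, so swapping them only turns the sign. With only 2 shared numbers the samples share a number, not a known pairing.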
